A study of Mus musculus with 9 samples.

Results

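Genes that mark megakaryocytes and platelets were followed in macrophages sorted from fetal livers with and without deletion of Xpr1, the gene for the phosphate exporter XPR1. The genes were Pf4, Ppbp, Itga2b, Itgb3, Gp1ba, Gp1bb, Gp9, Treml1 and Vwf, chosen by name as established genes of this lineage and matched to the data by their Ensembl identifiers. Earlier results of these data were known when these genes, and the lists of other genes used below, were chosen. All 9 had a row among the 13708 genes of the deposited table. Pf4 was 3.36-fold lower in the Xpr1-deleted samples, with no overlap between the genotypes, whereas the other 8 genes were lower on average by smaller or more variable amounts, and in 1 Mrc1Cre Xpr1fl/fl sample most of them lay close to the control range.

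RNA came from CD45+ F4/80hi CD11blow macrophages of E15.5 embryonic livers, in 5 Mrc1Cre Xpr1fl/fl and 4 Xpr1fl/fl samples. In the first genotype, Cre recombinase made under the control of Mrc1, which encodes the macrophage mannose receptor CD206, removed a loxP-flanked part of Xpr1. Deletion was therefore aimed at cells that express CD206, which besides macrophages include endothelial cells of the liver sinusoids. Both genotypes carried the floxed alleles, and the controls lacked Cre. The labels do not say whether a sample was 1 embryo or a pool, nor name litters or sexes, so the p-values below measure the spread between these samples only. Values are gene counts that the authors had divided by their DESeq2 normalization factors, called normalized counts here. Log2 fold changes are differences of log2(normalized count + 1) between Mrc1Cre Xpr1fl/fl and Xpr1fl/fl samples. They were tested by limma over 13594 genes with Benjamini-Hochberg adjustment at a threshold of 0.05. Values written as fold lower are ratios of the mean normalized counts.

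Megakaryocytes are large, polyploid cells of the blood-forming tissues, the fetal liver included, that shed platelets into the circulation. Their genes encode what platelets carry: chemokines stored in alpha granules (Pf4, also called Cxcl4, and Ppbp, the precursor of Cxcl7), the fibrinogen receptor integrin alphaIIb-beta3 (Itga2b and Itgb3), the GPIb-IX complex that binds von Willebrand factor (Gp1ba, Gp1bb and Gp9), the granule membrane receptor TLT-1 (Treml1) and von Willebrand factor itself (Vwf). Not every one is restricted to the lineage. Pf4 is also transcribed by several tissue macrophages, Itgb3 pairs with the alphaV integrin in macrophages and other cells, and Vwf is a gene of endothelial cells too. GATA1 and ETS factors such as FLI1 are known regulators of the lineage. In a bulk sample, fewer cells of a type and less RNA per cell cannot be told apart.

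The upstream sequences of 4 of the genes are shown because they let the lead gene be read beside its neighbour on the chromosome and beside members of the GPIb-IX complex. RefSeq (GRCm38.p6) gave the 250 bases before the start of 7 of the 9 genes, and Itgb3 and Vwf had no entry. The windows were searched on both strands for the GATA words AGATAA or TGATAA or AGATAG or TGATAG and for the ETS words AGGAAG or CGGAAG, and capitals mark a match in either direction. The windows are Pf4 (chr5:90772185-90772434, plus strand), Ppbp (chr5:90768268-90768517, plus strand), Gp9 (chr6:87777820-87778069, plus strand) and Gp1ba (chr11:70638872-70639121, plus strand), each written 5′ to 3′ on the strand of the gene.
Pf4: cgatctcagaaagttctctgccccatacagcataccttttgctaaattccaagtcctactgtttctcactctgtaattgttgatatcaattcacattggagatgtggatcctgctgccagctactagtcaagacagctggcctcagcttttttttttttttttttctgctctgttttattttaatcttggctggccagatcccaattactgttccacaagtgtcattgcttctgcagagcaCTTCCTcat
Ppbp: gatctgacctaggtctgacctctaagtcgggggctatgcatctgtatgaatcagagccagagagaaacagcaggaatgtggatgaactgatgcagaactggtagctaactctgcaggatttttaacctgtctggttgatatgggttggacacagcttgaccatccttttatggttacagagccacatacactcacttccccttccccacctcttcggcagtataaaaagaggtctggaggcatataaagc
Gp9: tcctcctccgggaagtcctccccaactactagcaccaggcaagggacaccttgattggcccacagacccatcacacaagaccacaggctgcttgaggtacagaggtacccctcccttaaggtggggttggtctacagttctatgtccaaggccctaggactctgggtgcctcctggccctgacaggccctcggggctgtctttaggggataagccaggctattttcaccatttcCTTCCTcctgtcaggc
Gp1ba: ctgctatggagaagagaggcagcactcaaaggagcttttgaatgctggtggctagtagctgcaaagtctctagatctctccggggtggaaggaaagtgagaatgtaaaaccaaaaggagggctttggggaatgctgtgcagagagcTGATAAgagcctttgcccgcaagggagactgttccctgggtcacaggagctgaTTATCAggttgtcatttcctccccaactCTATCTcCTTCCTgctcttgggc

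In the Pf4 window the only match was an ETS word on the opposite strand, from 9 to 4 bases before the RefSeq start. Measured from the Ppbp start, this Pf4 start lies further downstream than the start in the GENCODE annotation, which is used for the gene below. On that measure the Pf4 window falls inside the gene span given there. Gp9 had the same letters, CTTCCT, from 16 to 11 bases before its start. Ppbp had no match. Gp1ba held 3 GATA words, beginning 104, 51 and 23 bases before the start, and 1 ETS word from 16 to 11 bases before it. Among the other windows, Gp1bb held 1 word of each kind, Itga2b 2 ETS words and Treml1 none. Of the 7 windows, 2 held a GATA word and 5 an ETS word, whereas 26.5% and 39.2% of 32851 RefSeq windows of the same length did. A match describes the letters only, not a site in use.

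The targeted gene was checked first. Xpr1 fell from 1981.6 ± 204.7 (SD, n = 4) to 1162.1 ± 84.9 normalized counts (SD, n = 5), a log2 fold change of -0.77 (SE 0.08, adjusted p = 4.13e-05, limma with Benjamini-Hochberg adjustment). Mrc1, the gene that drives Cre, fell by 1.72 on the log2 scale (SE 0.12), and neither gene overlapped between the genotypes. Of 10 general macrophage markers, Lyz2, C1qa, C1qc and Aif1 fell, to 46.2, 54.8, 74.8 and 80% of the control mean, 6 did not pass and 0 rose. Adgre1 (F4/80) and Csf1r, among those 6, were abundant in both genotypes. They averaged 46581.0 and 84995.4 normalized counts in Mrc1Cre Xpr1fl/fl and 46008.1 and 77102.5 in Xpr1fl/fl samples. By comparison, the 9 megakaryocyte genes together made up 0.00325 to 0.00503% of all normalized counts in Mrc1Cre Xpr1fl/fl and 0.00955 to 0.0114% in Xpr1fl/fl samples, and each of them was detected in both genotypes. Totals per sample ranged from 26942921 to 28309443 normalized counts, which the normalization sets, and absolute depth is unknown. The column names begin with dates whose meaning the sources used here do not give. The earliest date held Mrc1Cre Xpr1fl/fl sample 5 and Xpr1fl/fl samples 1 to 3, a middle date held Xpr1fl/fl sample 4, and the latest date held Mrc1Cre Xpr1fl/fl samples 1 to 4. Date and genotype can therefore be separated only within the earliest date, with 1 sample against 3.

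Pf4, which encodes platelet factor 4, was lower in every Mrc1Cre Xpr1fl/fl sample. The gene (ENSMUSG00000029373, chromosome 5 of GRCm39, 90918479 to 90922110, plus strand, 3 exons) stood at 667.3, 509.6, 584.6, 437.5 and 441.3 normalized counts in Mrc1Cre Xpr1fl/fl samples 1 to 5. In Xpr1fl/fl samples 1 to 4 it stood at 1614.1, 1701.3, 1695.2 and 2096.8. The lowest control thus exceeded the highest Mrc1Cre Xpr1fl/fl sample by a wide margin, and the 2 groups did not approach each other. The means were 528.0 ± 98.3 (SD, n = 5) and 1776.8 ± 217.0 (SD, n = 4), a log2 fold change of -1.76 (SE 0.13, adjusted p = 7.79e-06, limma with Benjamini-Hochberg adjustment). With the date as a term the log2 fold change was -1.92 (SE 0.19, adjusted p = 0.00114 by the same method), and Mrc1Cre Xpr1fl/fl sample 5 reached 24.8% of the control mean.

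Ppbp, which encodes the precursor of the neutrophil attractant Cxcl7, lies on the same strand as Pf4 (ENSMUSG00000029372, chromosome 5, 90916371 to 90917930). It ends 548 bases before the GENCODE start of Pf4, yet its values were spread differently. Mrc1Cre Xpr1fl/fl samples 1 to 5 had 85.5, 55.8, 112.3, 64.7 and 216.1 normalized counts, and Xpr1fl/fl samples 1 to 4 had 295.2, 119.3, 140.7 and 148.7. Mrc1Cre Xpr1fl/fl samples 1 to 4 lay below every control, whereas sample 5 lay above 3 of the 4 controls. The log2 fold change of -0.80 (SE 0.38, adjusted p = 0.109, limma with Benjamini-Hochberg adjustment) did not pass the threshold. Without Mrc1Cre Xpr1fl/fl sample 5 it was -1.09 (adjusted p = 0.0121, limma), and with the date as a term 0.34 (SE 0.50, adjusted p = 0.708, limma). The ratio of Pf4 to Ppbp was 7.80, 9.13, 5.21, 6.76 and 2.04 in Mrc1Cre Xpr1fl/fl samples 1 to 5 and 5.47, 14.27, 12.05 and 14.10 in Xpr1fl/fl samples 1 to 4, so that both genotypes held a sample in which Ppbp was high relative to its neighbour. Of the other CXC chemokines of this locus, Cxcl3, Cxcl5 and Cxcl15 had no row. Cxcl2 rose (861.3 ± 194.4 against 587.6 ± 133.8 normalized counts, log2 fold change 0.55, adjusted p = 0.0343, limma) and Cxcl1 stood at 40.2 ± 19.1 against 44.2 ± 13.8 (adjusted p = 0.675, limma). The genotypes overlapped for Cxcl2, and its call ended with the date as a term (0.26, adjusted p = 0.655, limma) and without any 1 of Mrc1Cre Xpr1fl/fl samples 1, 3 and 4 or Xpr1fl/fl samples 3 and 4 (adjusted p 0.0757 to 0.106, limma).

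**Figure D1:**
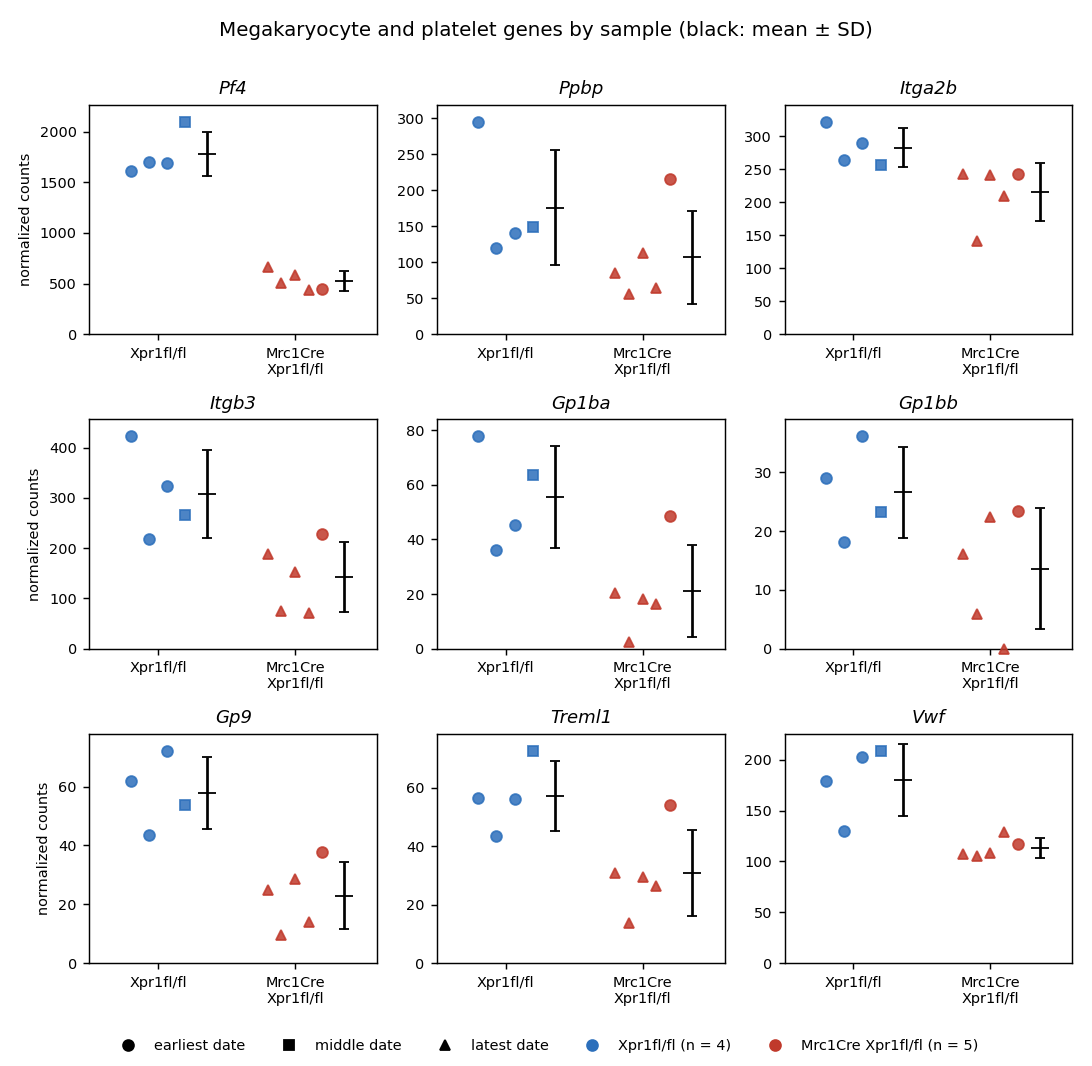
Normalized counts (y axes, linear, from 0) of the 9 megakaryocyte and platelet genes in the 4 Xpr1fl/fl (blue) and 5 Mrc1Cre Xpr1fl/fl (red) samples, 1 panel per gene, with the symbol giving the date in the column names and black bars giving mean ± SD. Pf4 separated widely (437.5 to 667.3 against 1614.1 to 2096.8), and the red circle, Mrc1Cre Xpr1fl/fl sample 5 of the earliest date, lay inside the control range for Ppbp, Itgb3, Gp1ba, Gp1bb and Treml1.

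Of the 2 chains of the fibrinogen receptor, Itgb3 passed the test and Itga2b did not, and the difference between them was not tested. Itga2b, the alphaIIb chain that is used to define megakaryocytes as CD41 (ENSMUSG00000034664, chromosome 11, 102341397 to 102360955, minus strand), had 243.3, 141.6, 241.4, 209.0 and 243.3 normalized counts in Mrc1Cre Xpr1fl/fl samples 1 to 5 and 321.9, 263.9, 289.9 and 255.8 in Xpr1fl/fl samples 1 to 4. The groups did not overlap, but the highest Mrc1Cre Xpr1fl/fl samples (243.3) came close to the lowest control (255.8). The means were 215.7 ± 44.0 (SD, n = 5) and 282.9 ± 29.8 (SD, n = 4), with a log2 fold change of -0.41 that did not pass (SE 0.16, adjusted p = 0.0604, limma with Benjamini-Hochberg adjustment). Mrc1Cre Xpr1fl/fl sample 2 was the lowest of the 9 samples, and without sample 5 the gene passed (-0.46, adjusted p = 0.0477, limma).

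Itgb3, the beta3 chain (ENSMUSG00000020689, chromosome 11, 104498826 to 104561302, plus strand), had 188.2, 74.3, 151.7, 71.3 and 228.3 normalized counts in Mrc1Cre Xpr1fl/fl samples 1 to 5. In Xpr1fl/fl samples 1 to 4 it had 422.3, 217.8, 323.9 and 266.0. Samples 2 and 4 of the first genotype were the lowest, and sample 5 just passed the lowest control. Itgb3 fell by 1.21 on the log2 scale (SE 0.35, adjusted p = 0.0152, limma with Benjamini-Hochberg adjustment), to 46.4% of the control mean, but the call was lost without Xpr1fl/fl sample 1 (adjusted p = 0.0511, limma) and with the date as a term (-0.44, SE 0.54, adjusted p = 0.651, limma). Itgav, the alphaV chain that also pairs with beta3, rose from 4362.5 ± 163.2 to 5667.1 ± 860.1 normalized counts (log2 fold change 0.36, adjusted p = 0.0165, limma), although sample 5, at 4165.4, lay below every control, and Itgb1, the beta1 chain, rose from 15777.2 ± 518.6 to 21019.1 ± 1369.6 (log2 fold change 0.41, adjusted p = 0.000238, limma). With the date as a term neither call held, at -0.07 for Itgav (adjusted p = 0.649, limma), a reversed direction, and 0.28 for Itgb1 (adjusted p = 0.053, limma).

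The GPIb-IX complex holds platelets to von Willebrand factor under flow. Its genes had low counts, and summed over Gp1ba, Gp1bb and Gp9 the samples had 17.6 to 109.8 normalized counts in Mrc1Cre Xpr1fl/fl and 97.6 to 168.4 in Xpr1fl/fl. Gp9, which stabilises the complex at the surface (ENSMUSG00000030054, chromosome 6, 87755047 to 87756750, plus strand), had 24.8, 9.4, 28.5, 14.0 and 37.6 normalized counts in Mrc1Cre Xpr1fl/fl samples 1 to 5 and 61.8, 43.5, 72.1 and 53.6 in Xpr1fl/fl samples 1 to 4. Every Mrc1Cre Xpr1fl/fl sample lay below every control. Gp9 fell by 1.43 on the log2 scale (SE 0.37, adjusted p = 0.00916, limma with Benjamini-Hochberg adjustment), a 2.52-fold lower mean (22.9 ± 11.3 against 57.7 ± 12.2). With the date as a term it was -0.61 (SE 0.59, adjusted p = 0.561, limma).

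Gp1ba, the chain that binds von Willebrand factor (ENSMUSG00000050675, chromosome 11, 70529948 to 70532862, plus strand), had 20.3, 2.3, 18.2, 16.4 and 48.6 normalized counts in Mrc1Cre Xpr1fl/fl samples 1 to 5. In Xpr1fl/fl samples 1 to 4 it had 77.7, 36.0, 45.2 and 63.4. Sample 5 lay above 2 of the controls while the other Mrc1Cre Xpr1fl/fl samples lay below them all. The log2 fold change was -1.73 (SE 0.62, adjusted p = 0.0411, limma with Benjamini-Hochberg adjustment). This was the largest adjusted p of the calls that passed, and leaving out any of 6 samples (Mrc1Cre Xpr1fl/fl 1, 3 or 4, or Xpr1fl/fl 1, 3 or 4) ended it, with adjusted p values (limma) of 0.0551, 0.0609, 0.0657, 0.107, 0.0682 and 0.0842. Gp1ba shares its place with Slc25a11 on the opposite strand, and whether the counting used strand is not given in the sources used here.

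Gp1bb, the chain joined to Gp1ba by disulphide bonds (ENSMUSG00000050761, chromosome 16, 18439067 to 18441153, minus strand), had 16.1, 5.9, 22.4, 0.0 and 23.5 normalized counts in Mrc1Cre Xpr1fl/fl samples 1 to 5 and 29.0, 18.1, 36.1 and 23.3 in Xpr1fl/fl samples 1 to 4. The groups overlapped, and Mrc1Cre Xpr1fl/fl sample 4 was listed at 0. The log2 fold change of -1.54 had the largest standard error of the 9 (0.82) and did not pass (adjusted p = 0.153, limma with Benjamini-Hochberg adjustment). Without Mrc1Cre Xpr1fl/fl sample 4 it was -0.74 (adjusted p = 0.201, limma), and with a pseudocount of 10 it was -0.75 (adjusted p = 0.102, limma). Gp1bb lies within Septin5, a septin gene on the same strand, so reads may be divided between them. Septin5 itself stood at 38.4 ± 19.7 against 119.6 ± 111.4 normalized counts (log2 fold change -1.13, adjusted p = 0.184, limma).

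Treml1, whose product TLT-1 moves from granules to the platelet surface on activation (ENSMUSG00000023993, chromosome 17, 48666918 to 48674208, plus strand), had 31.0, 13.6, 29.6, 26.4 and 54.1 normalized counts in Mrc1Cre Xpr1fl/fl samples 1 to 5 and 56.6, 43.4, 56.3 and 72.6 in Xpr1fl/fl samples 1 to 4. Again sample 5 stood among the controls and the other Mrc1Cre Xpr1fl/fl samples below them. Treml1 fell by 0.97 on the log2 scale (SE 0.33, adjusted p = 0.0355, limma with Benjamini-Hochberg adjustment). The call ended without any 1 of 7 samples, Mrc1Cre Xpr1fl/fl 1 to 4 (adjusted p 0.0532, 0.0564, 0.057 and 0.0645, limma) and Xpr1fl/fl 1, 3 and 4 (0.0713, 0.0714 and 0.0911), and with the date as a term the value was 0.06 (SE 0.47, adjusted p = 0.949, limma).

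Vwf (ENSMUSG00000001930, chromosome 6, 125523737 to 125663642, plus strand), the adhesive protein that GPIb binds, had closely spaced values in Mrc1Cre Xpr1fl/fl samples, with 107.7, 105.2, 107.8, 128.9 and 116.7 normalized counts in samples 1 to 5. Xpr1fl/fl samples 1 to 4 had 178.6, 130.3, 203.0 and 208.6. The groups did not overlap, but Xpr1fl/fl sample 2 lay only just above the highest Mrc1Cre Xpr1fl/fl sample. Vwf fell by 0.65 on the log2 scale (SE 0.15, adjusted p = 0.0057, limma with Benjamini-Hochberg adjustment), from 180.1 ± 35.7 to 113.3 ± 9.8. The value with the date as a term was -0.52 (SE 0.27, adjusted p = 0.252, limma), and under quantile normalization -0.35 (adjusted p = 0.0727, limma).

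Over the 9 genes, 6 fell (Pf4, Itgb3, Gp1ba, Gp9, Treml1 and Vwf) and 0 rose by limma with Benjamini-Hochberg adjustment. Of all 13594 genes tested, 21.6% fell, 21.5% rose and 43.1% changed in either direction. Scaled to the 75th percentile, 35% of the calls over all genes were rises, against 49.9% here. At an unadjusted p under 0.05, 7 of the 9 were lower and 0 higher. All 9 log2 fold changes were below 0, with a median of -1.21, against 0.00 over all genes. All 9 had passed the filter on low values. The count of 6 was 3 without Xpr1fl/fl sample 1 and 3 under quantile normalization. In 4 genes (Pf4, Itga2b, Gp9 and Vwf) every Mrc1Cre Xpr1fl/fl sample lay below every control, as it did for 17.5% of all genes, while 16.6% of all genes were separated the other way and none of the 9 was. In 4 (Pf4, Itgb3, Gp1ba and Gp9) the mean was under 50% of the control mean, which held for 9.86% of all genes.

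Samples of a genotype were ordered alike for many of the genes. Among Mrc1Cre Xpr1fl/fl samples, sample 5 had the highest value for 7 of the 9 genes, Itga2b by less than the first decimal, and the exceptions were Pf4 and Vwf. The lowest value was that of sample 2 for 6 genes and of sample 4 for the other 3. Among the controls, sample 2 was the lowest for 7 genes. In percent of the control mean, sample 5 stood at 24.8 for Pf4, 64.8 for Vwf, 65.1 for Gp9, 74.2 for Itgb3, 86.0 for Itga2b, 87.6 for Gp1ba, 88.3 for Gp1bb, 94.5 for Treml1 and 122.8 for Ppbp. Pf4 in this sample was thus as low as in the others, and the remaining genes were closer to the control mean. Vwf in sample 5 also lay within the other Mrc1Cre Xpr1fl/fl samples (58.4 to 71.6), and Itga2b was level with sample 1 (86.0). The 4 Mrc1Cre Xpr1fl/fl samples of the latest date lay below every control for 8 of the 9 genes, Gp1bb being the exception, as they did for 20.9% of all genes.

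**Figure D2:**
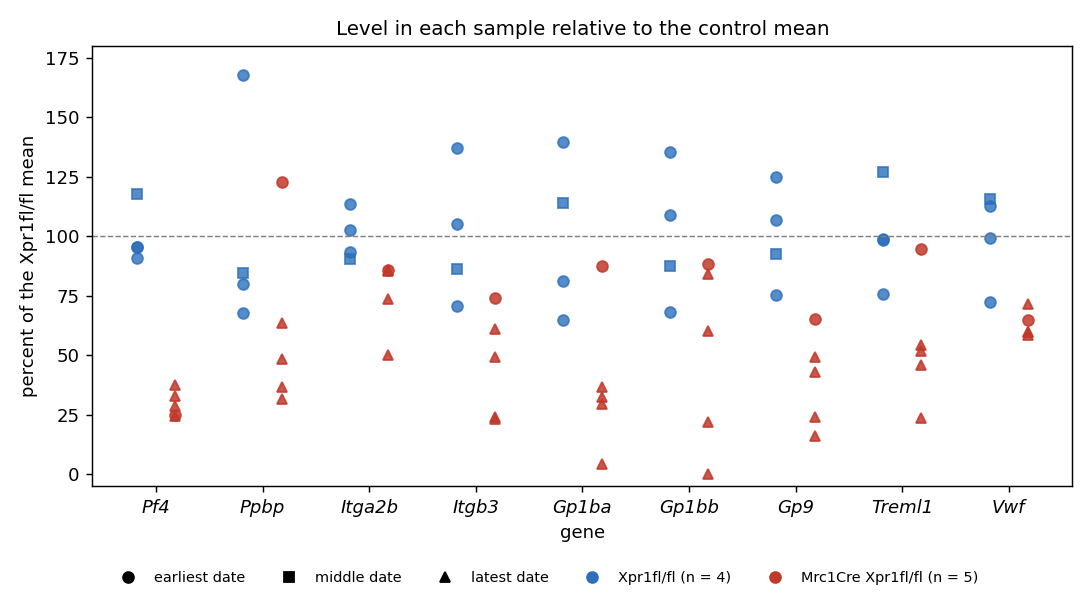
Level of each gene in each sample as a percentage of the mean of the 4 Xpr1fl/fl samples (y axis, linear; dashed line at 100), blue for Xpr1fl/fl, red for Mrc1Cre Xpr1fl/fl, with symbols giving the date. Pf4 is the gene in which all red points cluster low (24.6 to 37.6), whereas for the other genes the red circle (sample 5) lies between 64.8 and 122.8.

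The comparison within the earliest date set Mrc1Cre Xpr1fl/fl sample 5 against Xpr1fl/fl samples 1 to 3. Sample 5 was below all 3 controls for Pf4, Itga2b, Gp9 and Vwf, which held for 33.2% of all genes, and above all 3 for 0 of the 9 genes, against 34.9% of all genes. In the fit with the date as a term, which rests on the same samples for the genotype difference, Pf4 alone fell of the 9, and 0 rose. Over all genes 4.54% fell, 4.24% rose and 8.78% changed in that fit. Pf4 was also the only 1 of the 9 with an unadjusted p under 0.05 there. The log2 fold changes were below 0 for 7 of the 9, with a median of -0.26 against 0.01 over all genes, and their standard errors (0.19 to 1.41) were larger than without the term (0.13 to 0.82). Whether the smaller differences in sample 5 go with its date or with the sample cannot be told apart.

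**Figure D3:**
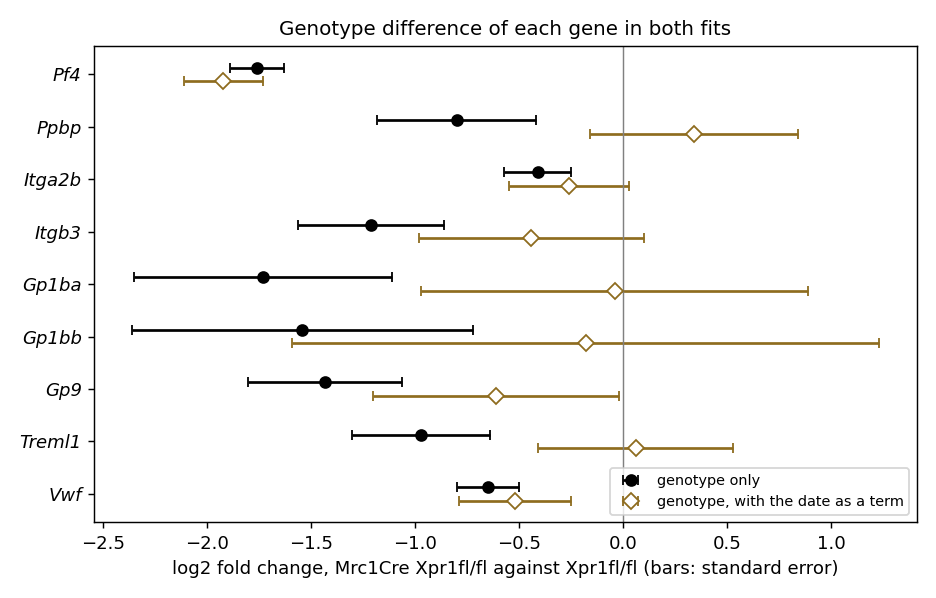
Log2 fold change of each gene, Mrc1Cre Xpr1fl/fl against Xpr1fl/fl (x axis), with genotype alone (black circles) and with the date as a further term (open diamonds); bars are standard errors and the vertical line is at 0. Pf4 kept its difference (-1.76 and -1.92), while Ppbp, Gp1ba, Gp1bb and Treml1 moved close to or past 0 with the date as a term.

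Summed over the 9 genes, Mrc1Cre Xpr1fl/fl samples 1 to 5 had 1384.2, 917.7, 1296.4, 968.3 and 1409.5 normalized counts and Xpr1fl/fl samples 1 to 4 had 3057.1, 2573.6, 2862.4 and 3188.9. Much of the gap was Pf4, which made up 31.3 to 55.5% of the sum in the first genotype and 52.8 to 66.1% in the second. Without Pf4 the sums were 716.9, 408.1, 711.8, 530.8 and 968.2 against 1443.1, 872.3, 1167.2 and 1092.2, and sample 5 then lay above 1 control. Per kilobase of the canonical transcript, the scale on which genes can be set side by side, the controls had mean levels of 1190.1 normalized counts per kb for Pf4, 154.8 for Ppbp, 65.0 for Gp9, 53.2 for Itgb3, 45.9 for Itga2b, 45.2 for Treml1, 24.5 for Gp1bb, 20.6 for Gp1ba and 20.4 for Vwf. Pf4 (1081.1 to 1404.4 per kb) and Ppbp (104.9 to 259.6) were apart from their neighbours in this order. The ranges of neighbours overlapped from Gp9 to Treml1 and again from Gp1bb to Vwf, with a narrow gap between the lowest Treml1 (34.3) and the highest Gp1bb (33.2). In Mrc1Cre Xpr1fl/fl samples Pf4 remained first (353.7 per kb), ahead of Ppbp (94.0) and Itga2b (35.0), with Gp1ba (7.9) last.

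For each gene, the 2 genes (of those averaging 50 normalized counts or more) whose log2 values ran closest to it over the 9 samples, each centred on its own mean, were found by the mean absolute difference. Nearest to Pf4 were Nrp2, a semaphorin and VEGF co-receptor (0.12 on the log2 scale, 245.5 against 726.0 normalized counts), and Igfbp4, an insulin-like growth factor binding protein (0.16, 902.6 against 2590.2). Neither is on the platelet lists described below. Near to Vwf was Dhrs3 (0.08), and nearest to Itga2b were Tbc1d10a (0.09) and Tmem218 (0.10). For Itgb3 the nearest were Zim1 (0.22) and Alox12 (0.23), for Gp9 Timp3 (0.14) and Nrgn (0.18), and for Gp1ba Cxcl12 (0.44) and Nrgn (0.45). Alox12, Timp3 and Nrgn are also on those lists. For Treml1 they were Izumo4 (0.16) and Chac2 (0.19), for Ppbp Ufsp1 (0.25) and Mdk (0.28), and for Gp1bb Slc15a2 (0.58) and Itgb3 (0.59). Between 11392 and 11393 genes were compared, and the distances are descriptions.

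Other genes of platelets and megakaryocytes held calls in both directions. Of 78 genes on 8 lists, 73 had a row, of which 36 fell, 16 rose and 21 did not pass (limma with Benjamini-Hochberg adjustment, against the 21.6% and 21.5% of all genes), with a median log2 fold change of -0.68. With the date as a term 8 fell and 8 rose, with a median of -0.30. Of the list genes named below, the calls of Clec1b, Sparc, F2r, Tpm4, Myh9, Flna, Gata1, Gfi1b, Tal1 and Runx1 held in that fit. The calls of the other named list genes ended. Leaving out 1 sample also ended the calls of Cd9 (highest adjusted p 0.0886, without Xpr1fl/fl sample 3), Alox12 (0.0605, without Xpr1fl/fl sample 1) and Ptgs1 (0.0914, without Xpr1fl/fl sample 4), all by limma. Among adhesion receptors, 5 of 9 fell and 1 rose, with a median of -1.13. Clec1b, the podoplanin receptor CLEC-2 of platelets, which Kupffer cells also make, was 5.17-fold lower (797.4, 470.4, 1101.4, 1098.6 and 1199.3 against 5362.9, 3604.8, 5224.6 and 5095.7 normalized counts, log2 fold change -2.43, adjusted p = 3.78e-05, limma). Like Pf4, it passed with the date as a term (-1.96, adjusted p = 0.0201, limma). The tetraspanin Cd9 fell by 0.23 on the log2 scale, whereas the scavenger receptor Cd36, the most abundant of the list, rose by 0.53.

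Among granule proteins, 8 of 13 fell and 1 rose (median -1.05). Sparc, a collagen-binding protein, fell from 722.8 ± 322.8 to 188.1 ± 33.9 normalized counts (log2 fold change -1.83, adjusted p = 0.00032, limma; with the date as a term -1.71, adjusted p = 0.0126, limma), and Nrgn, a calmodulin-binding protein, from 118.0 ± 22.2 to 48.5 ± 24.5 (-1.38). Srgn, the proteoglycan that packs granule contents in many leukocytes, rose by 0.44 on the log2 scale. Tgfb1 was the most abundant of the list and stood at 10515.8 ± 783.8 against 10377.8 ± 348.9 (adjusted p = 0.842, limma). Of 17 agonist receptors and signalling genes, 7 fell and 5 rose (median -0.34). F2r, a thrombin receptor, was 2.75-fold lower (142.6 ± 28.5 against 391.7 ± 67.1, adjusted p = 9.04e-05, limma), and Rasgrp2, the exchange factor that activates Rap1, fell by 0.76 on the log2 scale, whereas Tln1 (talin, which binds integrin tails) and Plcg2 rose by 0.61 and 0.38. Of the 4 eicosanoid enzymes 3 fell (Alox12 by 1.03, Tbxas1, the thromboxane synthase, by 0.90 and Ptgs1 by 0.18 on the log2 scale) and Pla2g4a rose by 0.32.

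On the cytoskeleton and vesicle list 2 of 9 genes fell and 4 rose, with a median of 0.19. Tpm4, Myh9 and Flna, which encode actin-associated proteins of many cell types, rose by 0.65, 0.64 and 0.59 on the log2 scale, whereas Rab27b and Myl9 fell by 1.23 and 1.14. On the list of transcription factors, 6 of 10 genes fell and 1 rose (median -1.47). Gata1 fell from 978.8 ± 106.9 to 280.4 ± 98.2 normalized counts (log2 fold change -1.86, adjusted p = 5.72e-05, limma) and Gfi1b from 556.1 ± 66.7 to 146.0 ± 56.0 (-1.98, adjusted p = 5.47e-05, limma), and both passed with the date as a term. Gata1, Gfi1b, Nfe2, Tal1 and Zfpm1 are also genes of erythroid cells. Runx1 rose by 0.38 on the log2 scale, and Fli1 stood at 1665.4 against 1746.1 normalized counts on average (adjusted p = 0.315, limma). Of 9 partners and receptors of the members, 5 fell and 2 rose (median -0.90), the fallen including the fibrinogen genes Fga and Fgg (by 1.03 and 1.02 on the log2 scale), which hepatocytes make.

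**Figure D4:**
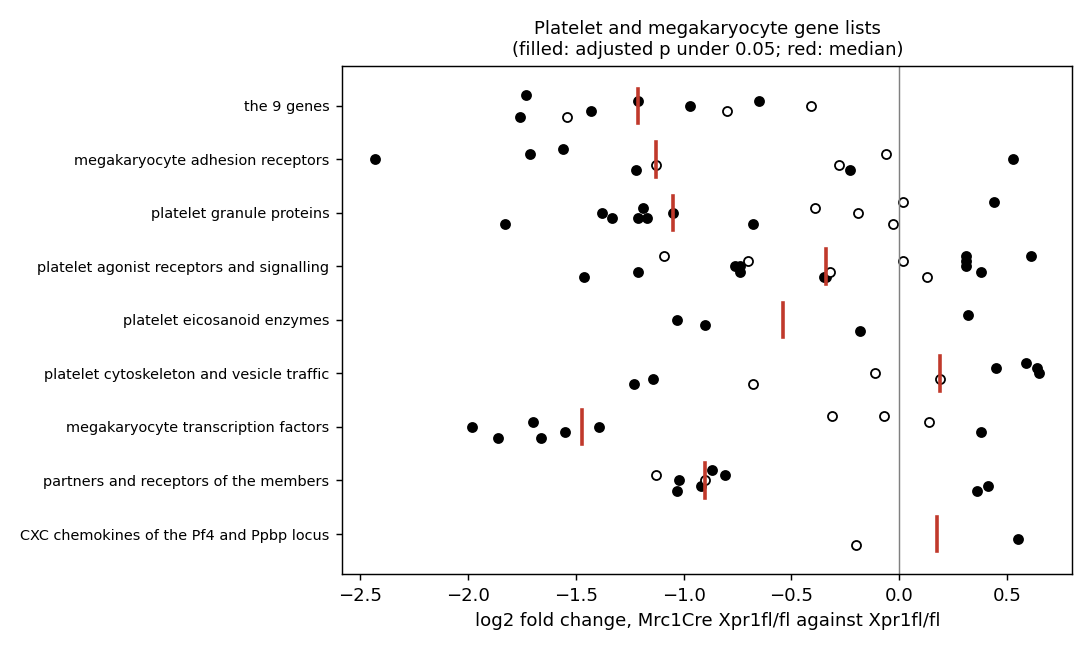
Log2 fold change (x axis) of each tested gene of the 9 megakaryocyte and platelet genes and of 8 further platelet and megakaryocyte lists (rows); filled points passed the threshold in limma, open points did not, and red bars are medians. All points of the first row lie below 0, while the cytoskeleton list has 4 filled points above 0 and 2 below.

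Lists of markers of other fetal liver cells were measured in the same samples, and they are given here beside the 9 genes. The sort was gated on CD45 and F4/80, and hepatocytes, endothelial cells and mural and stellate cells do not carry CD45. Falls are set against the 21.6% of all genes that fell. All 15 erythroid markers with a row fell, with summed levels of 107236 to 322541 normalized counts in Mrc1Cre Xpr1fl/fl and 425084 to 670474 in Xpr1fl/fl samples, and the highest of the first genotype was sample 5, whereas samples 1 to 4 reached at most 169396. Of endothelial markers 13 of 15 fell (6974 to 9083 against 11581 to 16262), of hepatocyte markers 9 of 9 (35037 to 45319, sample 5 the highest, against 59183 to 101832), and of mural and stellate markers 4 of 6 (503 to 869 against 1451 to 4472). Much of the endothelial sum was Stab2 (4792.9 against 8125.1 on average) and much of the hepatocyte sum was Trf (21976.9 against 35179.7). The endothelial marker Kdr was higher on average (553.5 against 462.2) and did not pass. Of mast cell and basophil markers 4 of 5 fell (297 to 377 against 696 to 1187, with Gzmb, Fcer1a, Prss34 and Cma1 without a row), and of blood progenitor markers 4 of 6 (790 to 1058 against 1465 to 2203). Kit is on both of these lists (198.0 ± 25.9 against 612.8 ± 151.5 normalized counts). Its fall is counted in each, here and with the date as a term below. Of neutrophil and granulocyte progenitor markers 5 of 10 fell (Elane, Mpo, Prtn3, Ctsg and Ms4a3), whereas Ngp, Camp, S100a8, S100a9 and Ltf did not pass. Summed levels of these 10 were 5101 to 18282 against 9332 to 54944, with sample 5 the highest of the first genotype. Sample 5 was also the highest for Ngp, Camp, S100a8, S100a9, Ltf and Ms4a3, but not for Elane, Mpo, Prtn3 and Ctsg. With the date as a term (4.54% of all genes lower) 3 of 15 erythroid, 2 of 15 endothelial, 2 of 9 hepatocyte and 2 of 6 mural and stellate markers fell. So did 4 of 5 mast cell and basophil, 3 of 6 blood progenitor and 5 of 10 neutrophil and granulocyte progenitor markers, the latter again Elane, Mpo, Prtn3, Ctsg and Ms4a3. The sums of the neutrophil and granulocyte progenitor list were the only ones of these 7 lists to overlap between the genotypes. The sums of the erythroid, the hepatocyte and the neutrophil and granulocyte progenitor lists shared with most of the 9 genes that sample 5 stood highest in its genotype. Pf4 and Vwf did not share it. Nor did the sums of the endothelial list (8825 in sample 5, at most 9083 in samples 1 to 4) and the mural and stellate list (622, at most 869). For the mast cell and basophil list (297) and the blood progenitor list (790) sample 5 was the lowest of its genotype. For hepatocyte markers the lead of sample 5 was narrow (45319 against at most 43521 in samples 1 to 4). It was wide for the erythroid list (322541 against 169396) and for the neutrophil and granulocyte progenitor list (18282 against 8666). Of 10 general macrophage markers 4 fell and 0 rose (limma with Benjamini-Hochberg adjustment, as for the other lists), with a median log2 fold change of -0.12 and sums of 274811 to 296897 against 287333 to 349488. The part of these cells in the levels of the megakaryocyte genes was not tested.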

How the data were processed

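RNA from 9 sorted macrophage samples was sequenced by the authors after library preparation from 45 ng of total RNA with a stranded mRNA kit. The authors checked the reads with FastQC, assigned them with salmon to transcripts of GRCm39, imported them with tximport and normalized them with DESeq2. Each deposited value is a signal at or above 0, the count of a gene divided by a normalization factor. Of values under 10, only 26 to 49.7% lay within 0.05 of a step of a whole multiple, so whole reads were not recovered, absolute depth is unknown and no count test was run. By chance 10% would do so for a fixed step, but the step with the highest share was kept, which raises that level. Relative depth, from these same steps, came out at 0.833 to 1.17 of the mean and is uncertain. Columns were matched to samples by name. Symbols and coordinates came from GENCODE mouse release 39.

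Genotypes were compared with limma 3.58.1 in R 4.3.3 (lmFit, eBayes with trend) after adding 1 to each normalized count and taking log2. Fitted were all 13594 genes in which 4 or more samples reached 10 normalized counts, with Benjamini-Hochberg adjustment and a threshold of 0.05. The fit was first tested on simulated data with known changes. Plots used matplotlib 3.10.9 (Python 3.11.15). Alternatives were pseudocounts of 0.5 and 10, no filter and a filter of 50, quantile normalization, scaling to the 75th percentile, a fit without trend or with robust variances, the replicate number as a block, the date as a term, and leaving out each sample. Named besides the 9 genes were Xpr1 and Mrc1, up to 2 genes with the largest rise and 2 with the largest fall per list among those past the threshold with a mean of at least 50, the most abundant gene of each list, the CXC chemokines of the locus, Septin5, and the 2 nearest genes of each member. A gene of the lists and a nearest gene are not reported here. Adgre1, Csf1r, Nfe2, Tal1 and Zfpm1 are named outside that rule, with their values already known. So are Stab2, Kdr, Trf and Kit, and the other single genes named from the macrophage list and from the neutrophil and granulocyte progenitor list. The members and lists were chosen with earlier results of these data known.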

Additional observations from a re-analysis of the deposited data

Results flagged for a closer look

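Of 18 sets of values, the 9 genes in each genotype, 1 held a sample far from the others. Ppbp in Xpr1fl/fl sample 1 stood at 295.2 normalized counts, while the other 3 controls had 119.3 to 148.7. Chance sets a sample apart in about 1 in 20 such groups. The same sample was the highest control for Itga2b (321.9), Itgb3 (422.3) and Gp1ba (77.7), and not for Pf4, where it was the lowest (1614.1).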

How the results depend on the processing

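The count of lower members was 6, and 1 with the date as a term and 3 under quantile normalization. It ranged from 3 to 8 when single samples were left out, 3 without Xpr1fl/fl sample 1 and 8 without Mrc1Cre Xpr1fl/fl sample 5. No member rose in any of these fits. With the date as a term, 617 of all genes fell and 577 rose, and 8 of the platelet and megakaryocyte list genes fell and 8 rose. Leaving out single samples gave 2324 to 3031 falls and 2491 to 3050 rises over all genes, and 28 to 38 falls and 15 to 17 rises on those lists. Of 168 log2 fold changes of single members under alternatives, 166 were below 0, 139 kept their side of the threshold, 22 lost a call and 6 gained one. Treml1 reversed with the date as a term (0.06), by construction a fit that rests on 1 sample against 3. Ppbp, which had no call to lose, was also above 0 in that fit (0.34, against -0.80 without the term). Gp1ba, Gp1bb and Gp9 gave no value under the filter of 50 normalized counts. The log2 ratio of the genotypes' mean summed counts was -1.31 with all members and -0.82 without Pf4. Replicate numbers did not pair the samples: deviations of same-numbered samples correlated at -0.0333, 0.147, -0.0113 and -0.0313. With the replicate block 9 members fell, with 3080 falls and 3146 rises over all genes and 39 and 16 on the lists. Mrc1Cre Xpr1fl/fl sample 5 has no control of its number, so the block took it out of the genotype difference. The log2 fold changes there were those without sample 5 (-1.09 for Ppbp and -1.42 for Itgb3 in both fits). Pf4 kept its call in all 19 alternatives, and the cause of the other changes was not tested.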
